A study of Homo sapiens with 6 samples.

Results

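The ERBB receptors and the ligands that bind them were followed in LNCaP cells, an androgen-sensitive line derived from a human prostate cancer. The set was taken by gene symbol and not by a rule on measured values, but earlier results of these data were known when it was chosen. It holds 10 of the 23354 genes of the deposited count table: the 4 receptors EGFR, ERBB2, ERBB3 and ERBB4, and the 6 ligands EGF, TGFA, HBEGF, AREG, EREG and BTC. Total RNA was sequenced from 6 libraries. The 3 libraries of the DHT group came from cells given 1 nM dihydrotestosterone (DHT), the potent androgen, for 48 h. The 3 libraries of the DHT+WBM group came from cells given the same DHT dose for the same time together with WBM extract at 3 µL per mL. The labels do not spell out WBM, name a vehicle for the extract or include cells without DHT, so every value below is from androgen-treated cells of 1 line. Cells were grown in a medium with fetal bovine serum, itself a source of growth factors, and the labels do not say whether the treatment was done in it. Nor do they say that the replicates were separate cultures. The p-values therefore reflect only how far these 6 libraries spread, and that spread may be of technical origin.

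The ERBB family comprises EGFR and its close relatives ERBB2, ERBB3 and ERBB4, receptor tyrosine kinases that signal as pairs. ERBB2 has no known soluble ligand and acts as a partner of the others, and ERBB3 has little kinase activity of its own but, once paired with ERBB2, is a strong activator of PI3-kinase. The ligands are made as membrane-anchored precursors that are cut free by proteases of the ADAM family. In prostate cancer cells the family feeds RAS-ERK and PI3-kinase-AKT signalling, and it is known for its cross-talk with the androgen receptor.

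The promoters of 4 ligands are shown first, chosen by the values given below. TGFA and HBEGF had the largest fold changes between the groups among the members tested. AREG and EREG had no count in any library. The sequences come from RefSeq (GRCh38.p14), which held a promoter for 9 of the 10 members, all except ERBB3. Each stretch is printed 5′ to 3′ on the strand of its gene and ends at the base before the annotated start. That of TGFA is the minus strand of chr2:70553827-70554076, that of HBEGF the minus strand of chr5:140346604-140346853, that of AREG the plus strand of chr4:74445066-74445135 and that of EREG the plus strand of chr4:74365075-74365144. Capitals mark matches, on either strand, to a GC box with the letters GGGCGG. They also mark a TATA box, spelled TATAAA, and the cAMP response element, spelled TGACGTCA.
TGFA: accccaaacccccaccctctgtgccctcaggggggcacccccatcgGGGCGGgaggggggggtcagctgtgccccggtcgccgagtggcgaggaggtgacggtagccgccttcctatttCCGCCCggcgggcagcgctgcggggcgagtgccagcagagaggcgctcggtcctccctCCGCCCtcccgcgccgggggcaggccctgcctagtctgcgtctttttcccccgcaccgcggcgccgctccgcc
HBEGF: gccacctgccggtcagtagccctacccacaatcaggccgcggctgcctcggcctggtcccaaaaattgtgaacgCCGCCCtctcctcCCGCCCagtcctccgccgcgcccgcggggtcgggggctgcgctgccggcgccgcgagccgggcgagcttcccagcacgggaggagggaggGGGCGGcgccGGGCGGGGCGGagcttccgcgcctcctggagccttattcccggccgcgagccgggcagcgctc
AREG: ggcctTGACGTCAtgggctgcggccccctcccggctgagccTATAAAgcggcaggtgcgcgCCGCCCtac
EREG: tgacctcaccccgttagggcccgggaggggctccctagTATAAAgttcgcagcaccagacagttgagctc

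The TGFA and HBEGF windows were rich in G and C, at 75.6% and 76.4%, against a median of 58% over the 27305 RefSeq promoters of the same 250 bases. They held 3 and 5 GC boxes, of which the last pair in HBEGF overlap by a shared base, and 42.3% of all the windows held at least 1. A TATA box lay 29 bases before the start of AREG and 32 bases before that of EREG, and was found in 11.1% of the windows. The cAMP response element of AREG was found in 1.77%. Of the other 5 motifs searched on both strands, the AP-1 site (TGANTCA, in 6.60% of windows) and the antioxidant response core (TGACNNNGC, 11.0%) had no match in these 4 ligands' windows of 250 bases. The same held for the androgen receptor half-site (AGAACA, 12.4%). The xenobiotic response core (GCGTG, 31.9%) matched at 2 places in AREG and at 1 in EREG, and the CAAT box (CCAAT, 33.0%) matched at 2 places in EREG, all of them upstream of the stretches printed. Among the other members with a window, the share of G and C ran from 48.8% in EGF to 73.6% in EGFR. A match describes the letters of the window and is not evidence that a factor binds there.

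The 6 libraries held 19127357 to 21490953 counts each, and 13466 genes had enough counts to be tested. Between the groups, 58.2% of these genes passed an adjusted p of 0.05 in edgeR's quasi-likelihood test, 29.2% of them higher and 29.0% lower in DHT+WBM. For 62.2% of tested genes, the values of the DHT and DHT+WBM libraries did not overlap, and the median absolute log2 fold change was 0.21. The first principal component separated the groups and held 77.7% of the variance. The labelled cell line was checked by its markers: all 10 prostate luminal genes were tested. Their summed level was 5683 to 5906 CPM (counts per 1e6 counts) in the DHT libraries, and in the DHT+WBM libraries it was 3640 to 3722 CPM. Of 6 basal markers 1 was tested (summed levels 4.53 to 7.07 and 4.97 to 5.75 CPM in the same order, KRT5 at 0), and of 9 fibroblast and endothelial markers 4 were (18.5 to 20.6 and 17.1 to 17.9 CPM, COL1A2 and CDH5 at 0). Of 6 leukocyte markers 2 were tested (2.72 to 2.96 and 3.80 to 5.12 CPM). The part of these markers in the results was not tested. In bulk RNA a change per cell and a change in the share of cells that make a transcript cannot be told apart.

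With WBM extract, TGFA was 1.59-fold and HBEGF 1.39-fold higher, ERBB3 was 1.19-fold lower, and ERBB2, EGF and EGFR were 1.11-fold, 1.12-fold and 1.09-fold higher. Of the 10 members, 6 passed the filter on low counts (EGFR, ERBB2, ERBB3, EGF, TGFA and HBEGF), 5 of these passed the test as higher and 1, ERBB3, as lower. The libraries of the groups did not overlap for 5 of the 6, all except EGFR, against 62.2% of all tested genes. The number called higher fell to 3 where DHT replicate 3 was left out, and likewise for DHT+WBM replicates 2 and 3, the calls of EGFR and EGF being lost. ERBB4, AREG, EREG and BTC had too few counts to be tested. The shares of all tested genes that passed, 29.2% higher and 29.0% lower, are the level against which 5 and 1 of 6 are to be read. By size, the change of TGFA was larger than that of 87.7% of all tested genes and that of HBEGF larger than 79.2%. The figure was 56.5% for ERBB3, 41.5% for EGF, 38.2% for ERBB2 and 32.2% for EGFR.

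**Figure D1:**
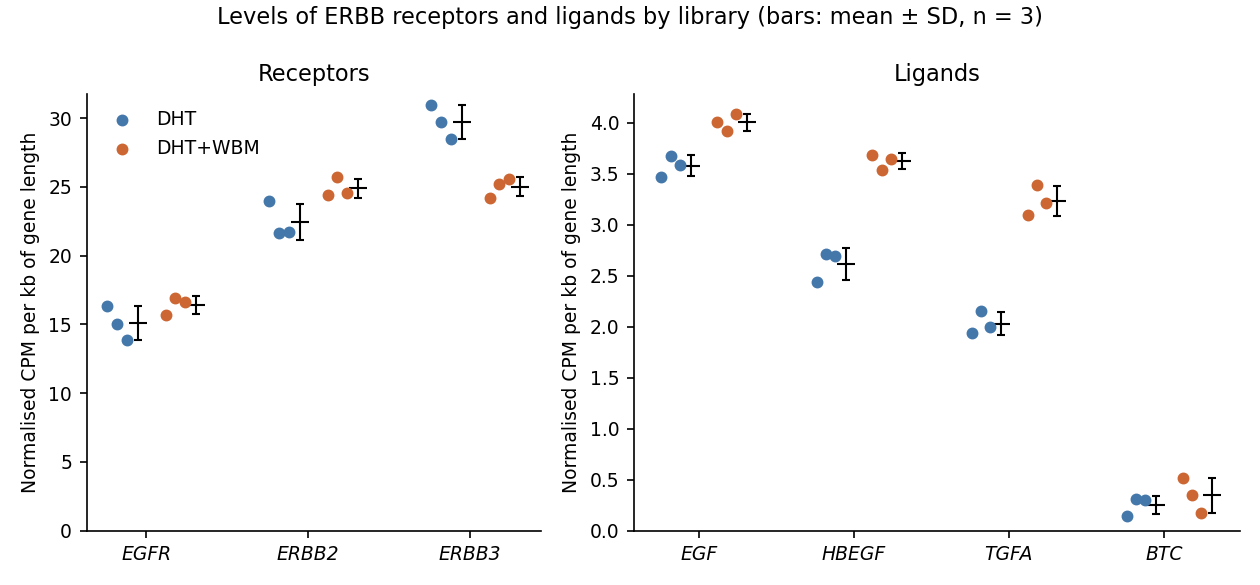
Level of 7 members in every library, in normalised CPM per kb of gene length, receptors on the left and ligands on the right on separate axes (1 point per library, bars at mean ± SD, n = 3 per group). In TGFA, HBEGF, EGF, ERBB2 and ERBB3 the points of the groups are apart, and in EGFR and BTC they overlap. ERBB4, AREG and EREG, with 0 to 2 counts per library, are not drawn.

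Among the receptors, ERBB3, the PI3-kinase-coupling receptor with weak kinase activity, fell. ERBB3 lies on chromosome 12, 56473809 to 56497291 on the plus strand (coordinates of the members are those of the deposited table, whose build is hg19 per the submitters' processing notes). Its level was 231, 221 and 212 CPM in the 3 DHT libraries and 181, 188 and 191 CPM in the 3 DHT+WBM libraries. Every DHT+WBM library was below every DHT library. The means were 221 ± 9.14 CPM (SD, n = 3) in DHT and 186 ± 5.29 CPM (SD, n = 3) in DHT+WBM, a log2 fold change of -0.25 ± 0.04 (SE) with an edgeR adjusted p of 1.68e-06. The change kept its direction and passed the test under all 14 alternative settings, with log2 fold changes from -0.28 to -0.20.

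ERBB2, the partner receptor without a ligand of its own, rose by a smaller amount. It lies on chromosome 17, 37844393 to 37884915, plus strand. The DHT libraries measured 143, 129 and 130 CPM and the DHT+WBM libraries 146, 153 and 147 CPM. DHT replicate 1 came close to the DHT+WBM libraries but stayed below them. The means were 134 ± 7.94 CPM (SD, n = 3) and 149 ± 4.22 CPM (SD, n = 3), and the log2 fold change was 0.15 ± 0.04 (SE), with an edgeR adjusted p of 0.00323. It passed in all 14 alternatives, with log2 fold changes from 0.12 to 0.20.

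EGFR, the receptor for EGF, TGFA and AREG and a receptor for the other ligands of the set, showed the smallest difference of the 6 members tested. The gene lies on chromosome 7, 55086725 to 55275031, plus strand. Its level was 116, 107 and 98.6 CPM in DHT and 112, 120 and 118 CPM in DHT+WBM. DHT replicate 1 was above DHT+WBM replicate 1, so the groups overlapped. The means were 107 ± 8.76 CPM (SD, n = 3) and 117 ± 4.48 CPM (SD, n = 3), with a log2 fold change of 0.12 ± 0.05 (SE) and an edgeR adjusted p of 0.0270. The call was lost with DESeq2 (adjusted p 0.0656). It was also lost in edgeR without DHT+WBM replicate 2 (adjusted p 0.125), without DHT+WBM replicate 3 (0.110) and without DHT replicate 3, where the log2 fold change fell to 0.06 (adjusted p 0.258).

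ERBB4, the remaining neuregulin receptor, was at the limit of detection. The gene lies on chromosome 2, 212240442 to 213403352, minus strand. It had 1, 2 and 1 counts in DHT and 0, 1 and 1 counts in DHT+WBM. The sums of 4 counts (95% exact Poisson interval 1.09 to 10.2) and 2 counts (0.242 to 7.22) cannot be distinguished at this depth, and such intervals cover counting error only. With no low-count filter its adjusted p in edgeR was 0.612.

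Among the ligands, TGFA, an EGFR ligand made by many carcinoma cells, had the largest relative difference of all members tested. The gene lies on chromosome 2, 70674412 to 70781147, minus strand. Its level was 9.27, 10.3 and 9.56 CPM in DHT and 14.8, 16.2 and 15.4 CPM in DHT+WBM. All DHT+WBM libraries were above all DHT libraries, with a gap wider than the range within either group. The means were 9.71 ± 0.544 CPM (SD, n = 3) and 15.5 ± 0.709 CPM (SD, n = 3), and the log2 fold change was 0.67 ± 0.08 (SE), with an edgeR adjusted p of 8.89e-09. Across the 14 alternatives the log2 fold change was 0.63 to 0.72 and passed the test each time. The 6 values rest on 194 to 334 counts per library.

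HBEGF, a heparin-binding ligand of EGFR and ERBB4, rose as well. It lies on chromosome 5, 139712428 to 139726188, minus strand. The DHT libraries measured 5.73, 6.39 and 6.34 CPM and the DHT+WBM libraries 8.68, 8.32 and 8.56 CPM. The groups did not overlap, and the DHT+WBM libraries lay closer together than the DHT libraries. The means were 6.15 ± 0.367 CPM (SD, n = 3) and 8.52 ± 0.183 CPM (SD, n = 3). The log2 fold change was 0.47 ± 0.10 (SE), with an edgeR adjusted p of 0.000157 and a range of 0.42 to 0.52 over the 14 alternatives, all past the threshold. Counts per library were 120 to 186.

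EGF, the founding ligand of the family, differed by less. It lies on chromosome 4, 110834040 to 110934118, plus strand. Its level was 19.8, 21.0 and 20.5 CPM in DHT and 22.9, 22.4 and 23.3 CPM in DHT+WBM, without overlap. The means were 20.4 ± 0.586 CPM (SD, n = 3) and 22.9 ± 0.478 CPM (SD, n = 3), with a log2 fold change of 0.16 ± 0.07 (SE) and an edgeR adjusted p of 0.0316. This call stood near the threshold: it was lost in 7 of the 14 alternatives. These were edgeR without the low-count filter (adjusted p 0.0648), DESeq2 (0.104) and the leaving out of DHT replicate 1 (0.102), DHT replicate 3 (0.0569) or DHT+WBM replicate 1, 2 or 3 (0.0810, 0.0518 and 0.135). The direction was the same in all 14.

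BTC, a ligand of EGFR and ERBB4, was detected at a few counts per library. It lies on chromosome 4, 75671448 to 75719882, minus strand. It had 4, 8 and 8 counts in DHT and 14, 9 and 5 counts in DHT+WBM. The groups overlapped, and DHT+WBM replicates 1 and 3 held the highest and nearly the lowest count. The sums of 20 and 28 counts gave a ratio of 1.39 (95% exact interval 0.756 to 2.60, counting error only), and with no low-count filter the edgeR adjusted p was 0.473.

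AREG and EREG, EGFR-family ligands whose genes lie near BTC on chromosome 4 (75310853 to 75490485 and 75230860 to 75254477, both on the plus strand), had 0 counts in all 6 libraries. A count of 0 over the 3 libraries of a group allows up to 3 counts, or 0.0489 CPM in DHT and 0.0486 CPM in DHT+WBM. They were among the 4691 genes of the table, 20.1%, that had no count in any library. The span of AREG in the deposited table is 179633 bp, against a gene length of 2.46 kb in the same table, and the hg19 assembly carries a near-identical second copy of this gene. Whether reads of AREG were set aside for matching more than 1 place was not tested, so its 0 is less certain than that of EREG.

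Of the 5 ERBB ligands outside the set, 1 was tested. NRG1, NRG2, NRG3 and EPGN, of which the neuregulins bind ERBB3 or ERBB4 and EPGN binds EGFR, had 0 to 4 counts per library. NRG4, an ERBB4 ligand, had 33, 23 and 24 counts in DHT and 17, 23 and 22 counts in DHT+WBM, which overlapped, and did not pass the test (log2 fold change -0.37 ± 0.25 SE, edgeR adjusted p 0.202).

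**Figure D2:**
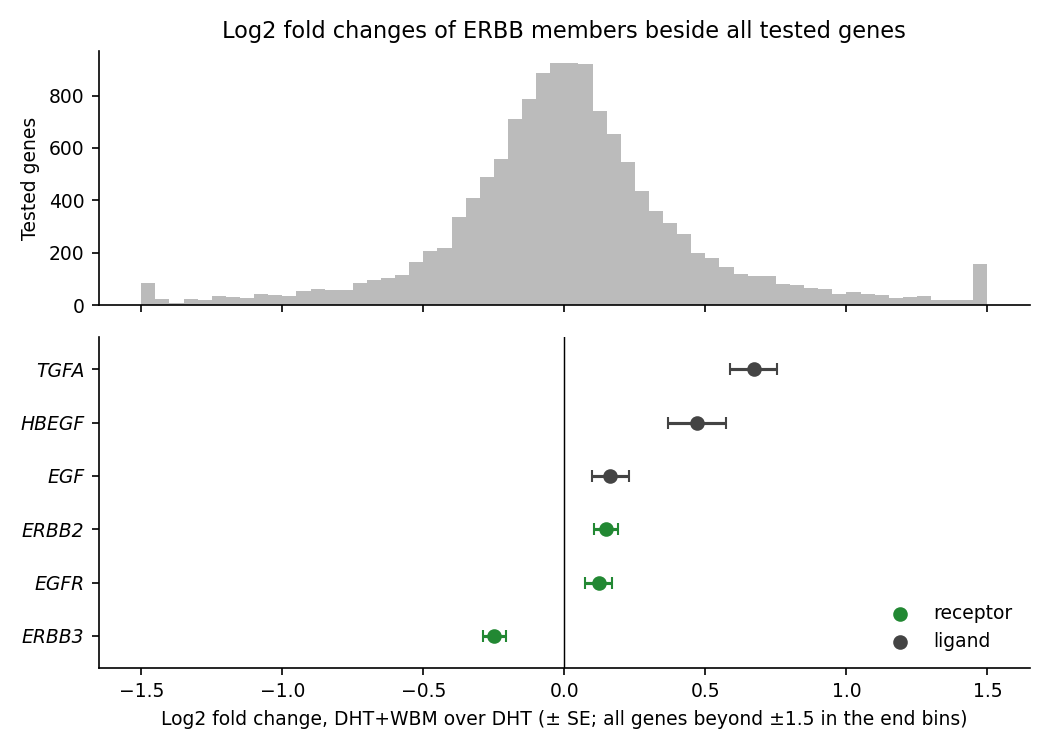
Top, number of tested genes by log2 fold change of DHT+WBM over DHT, in bins; bottom, the 6 members tested on the same axis, with bars of 1 SE. TGFA at 0.67 and HBEGF at 0.47 lie to the right of the bulk of genes, ERBB3 lies below 0, and EGF, ERBB2 and EGFR lie between 0.12 and 0.16.

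To compare genes with each other, levels were divided by the gene length of the deposited table (CPM per kb). On this scale the order of the receptors in DHT was ERBB3 at 29.7 ± 1.23, ERBB2 at 22.4 ± 1.33 and EGFR at 15.1 ± 1.23 CPM per kb (SD, n = 3), with no overlap between neighbours. In DHT+WBM, ERBB3 and ERBB2 were at 25.0 ± 0.710 and 24.9 ± 0.707 CPM per kb (SD, n = 3) and overlapped, with EGFR below them at 16.4 ± 0.629. The ratio of ERBB3 to ERBB2, the partners of the PI3-kinase-activating pair, was 1.29, 1.37 and 1.31 in the DHT libraries and 0.992, 0.982 and 1.04 in the DHT+WBM libraries. It was thus above 1 in every DHT library and near 1 in every DHT+WBM library. The value near 1 rests on the length term, since in CPM the mean of ERBB3 stood above that of ERBB2 in both groups. These means were 221 and 134 CPM in DHT and 186 and 149 CPM in DHT+WBM. The ratio of ERBB2 to EGFR overlapped between the groups, at 1.49 ± 0.0675 and 1.52 ± 0.0401 (SD, n = 3). The summed level of the 4 receptors also overlapped, at 67.2 ± 3.66 CPM per kb in DHT and 66.3 ± 1.80 CPM per kb in DHT+WBM (SD, n = 3).

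In shares of this receptor sum, ERBB3 had 44.2% ± 0.691 in DHT and 37.7% ± 0.546 in DHT+WBM (SD, n = 3). ERBB2 had 33.4% ± 0.700 and 37.5% ± 0.663, EGFR had 22.4% ± 0.678 and 24.7% ± 0.292, and ERBB4 had under 0.0126% in every library. The libraries of the groups did not overlap for ERBB3, ERBB2 or EGFR. These shares are parts of the same sum and so are not independent, and the level of EGFR itself overlapped between the groups. The design of 3 against 3 libraries allows no exact permutation p below 0.10, so the shares are given without a test.

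The summed level of the 6 ligands was lower than that of the receptors and did not overlap between the groups: 7.99, 8.86 and 8.58 CPM per kb in the DHT libraries against 11.3, 11.2 and 11.1 CPM per kb in the DHT+WBM libraries. EGF was highest, then HBEGF, then TGFA in both groups, at 3.58 ± 0.103, 2.62 ± 0.156 and 2.03 ± 0.114 CPM per kb in DHT and 4.01 ± 0.0837, 3.62 ± 0.0777 and 3.23 ± 0.148 CPM per kb in DHT+WBM (SD, n = 3). No neighbours in this order overlapped. The distances between them narrowed: EGF stood at 1.77 ± 0.0518 times TGFA in DHT and 1.24 ± 0.0737 times in DHT+WBM (SD, n = 3), and the libraries of the groups did not overlap in this ratio. In shares of the ligand sum, EGF had 42.3% ± 1.04 and 35.7% ± 0.924, TGFA 23.9% ± 0.581 and 28.8% ± 1.45, HBEGF 30.9% ± 0.491 and 32.3% ± 0.642, and BTC 2.91% ± 0.946 and 3.10% ± 1.51 (SD, n = 3). Without the length term EGF still had the largest share, but TGFA stood above HBEGF.

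**Figure D3:**
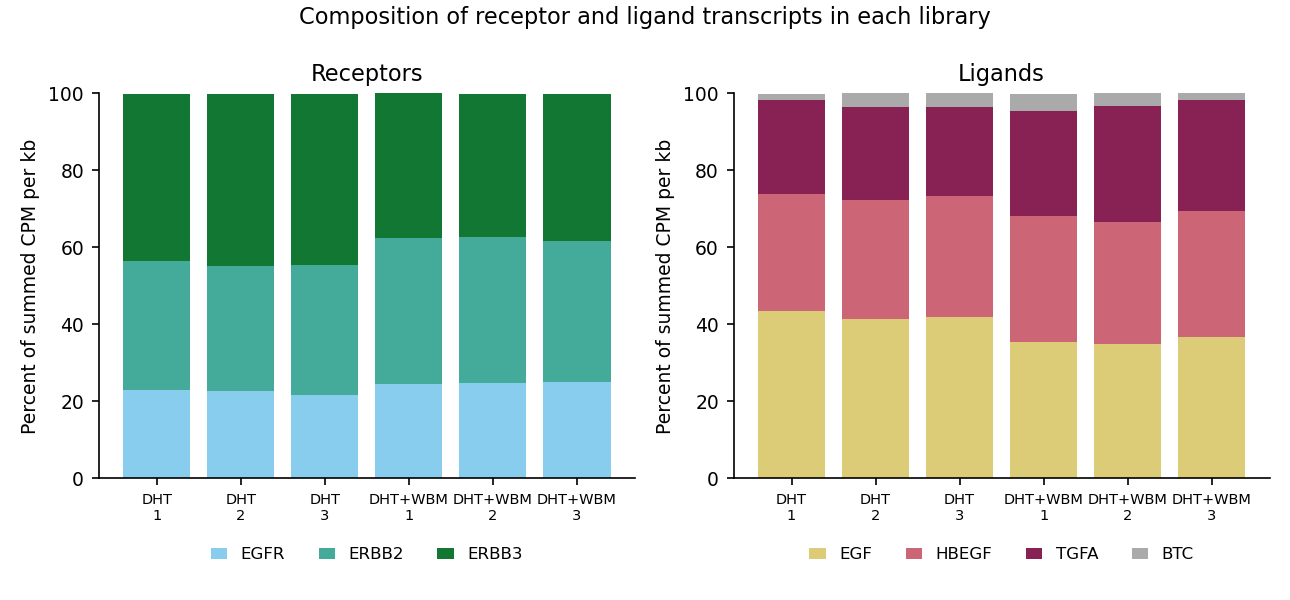
Share of each receptor in the summed receptor level (left) and of each ligand in the summed ligand level (right), as stacked bars in percent of CPM per kb, 1 bar per library; members under 0.0126% are not drawn. On this scale per kb, ERBB3 holds the largest receptor share in every DHT library and is about level with ERBB2 in the DHT+WBM libraries. EGF has the largest ligand share in all 6 libraries.

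The genes that act around the receptors were read from 5 lists, by role, also chosen with earlier results of these data known. Of 125 genes tested in these lists, 50 were higher and 27 lower in DHT+WBM, or 40.0% and 21.6%, against 29.2% and 29.0% of all tested genes. By list, the share that was higher ran from 16.7% of the RAS-ERK cascade to 56.7% of the early response genes.

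The first list covers shedding and trafficking of the ligands and holds a protease inhibitor as well as proteases, so its counts do not describe release alone. In it 7 of 14 tested genes rose, 3 fell and 4 did not pass, with a median log2 fold change of 0.08. The protease BACE2 rose from 6.57 to 10.1 CPM (log2 fold change 0.62), the rhomboid protease RHBDL2 by 0.46, and CNIH4, a cargo receptor of the early secretory pathway, by 0.32. CNIH1, a relative of CNIH4, fell by 0.24, the protease ADAM9 fell by 0.18 and RHBDF2, a partner of ADAM17, fell by 0.18. The call of RHBDF2 was lost in 7 of the 14 alternatives, among them the leaving out of DHT replicate 1 or 3 or of DHT+WBM replicate 1 or 3, with an adjusted p of up to 0.154. The main sheddases were looked at outside the naming rule, after their values were seen: ADAM17, which frees TGFA, HBEGF and AREG, was at 34.3 ± 1.50 and 34.5 ± 1.41 CPM (SD, n = 3; edgeR adjusted p 0.890). ADAM10, which frees EGF and BTC, rose from 274 ± 7.65 to 303 ± 9.37 CPM (SD, n = 3; edgeR adjusted p 0.00177).

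Of 30 adaptors and proximal signalling genes, 13 rose, 5 fell and 12 did not pass, and the median log2 fold change was 0.08. The shares were 43.3% higher and 16.7% lower, against 29.2% and 29.0% of all tested genes. GAB2, a docking protein for PI3-kinase and SHP2, rose from 5.00 to 9.75 CPM (log2 fold change 0.96). PIK3R3, a regulatory subunit of PI3-kinase, rose by 0.36, whereas PIK3R1, another such subunit, fell from 133 to 103 CPM (log2 fold change -0.37). SOS1, which loads RAS with GTP, rose by 0.34. The adaptors CRKL and SHC1 fell by 0.21 and 0.16.

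In the RAS-ERK cascade itself, 3 of 18 genes rose, 4 fell and 11 did not pass, with a median of 0.01. Both shares, 16.7% higher and 22.2% lower, were below the 29.2% and 29.0% of all tested genes. MAPK3, which encodes the kinase ERK1, rose from 51.0 to 70.4 CPM (log2 fold change 0.46), and MAP2K2, its upstream kinase, and NF1, a RAS inhibitor, each rose by 0.17. RRAS2 fell by 0.29, RASA1, another RAS inhibitor, by 0.20, and the ERK-activated kinase RPS6KA3 by 0.16. With upper-quartile scaling or library totals alone, 5 in place of 3 of these genes were higher.

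In the list on receptor inhibition and turnover, 10 of 33 genes rose, 9 fell and 14 did not pass, with a median of -0.0013. These are 30.3% higher and 27.3% lower, close to the 29.2% and 29.0% of all tested genes. The list also holds chaperones of the receptors, so a fall does not mean the same for every gene in it. The related ubiquitin ligases NEDD4 and NEDD4L moved in opposite directions, NEDD4 from 30.4 to 46.6 CPM (log2 fold change 0.62) and NEDD4L from 218 to 129 CPM (log2 fold change -0.75). The phosphatases PTPN12 and PTPRJ rose by 0.45 and 0.41. HSP90AB1, a chaperone on which ERBB2 depends, fell by 0.45, and LRIG3, a relative of the receptor inhibitor LRIG1, fell by 0.42.

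Genes known as early targets of EGF, here read at 48 h, showed the highest median of the lists, 0.32, against 0.0029 over all tested genes. In this list 17 of 30 rose, or 56.7%, 6 fell, or 20.0%, and 7 did not pass. Over all tested genes 29.2% were higher and 29.0% lower. ETV5, an ETS factor downstream of ERK, rose from 3.31 to 10.5 CPM (log2 fold change 1.66). CXCL8, the chemokine interleukin-8, rose from 6.54 to 16.5 CPM (1.34) and the stress factor ATF3 from 31.3 to 57.7 CPM (0.88). Others fell: PHLDA1 from 17.3 to 11.4 CPM (-0.60), KLF6 by 0.49 and MYC from 214 to 178 CPM (-0.27). With library totals alone 3 in place of 6 of the list were lower. Many of these genes also answer to other signals, and receptor activity was not measured.

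**Figure D4:**
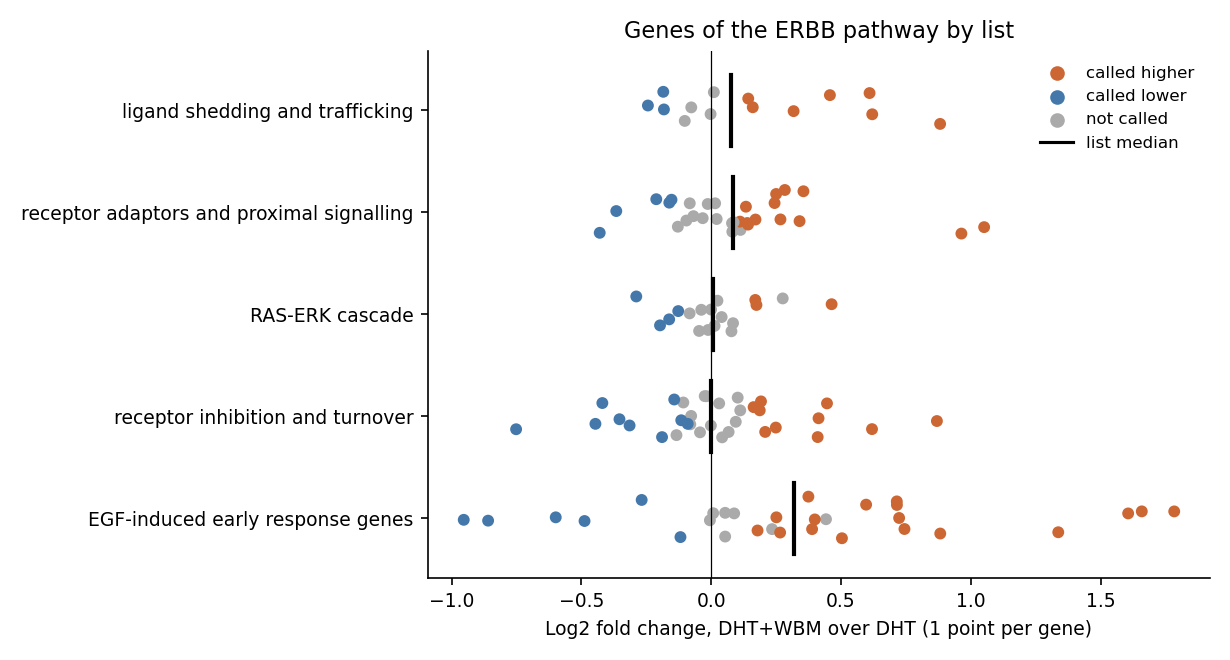
Log2 fold change of DHT+WBM over DHT for each tested gene of the 5 lists (1 point per gene, coloured by its call, with the list median as a bar). The median is 0.32 in the early response genes and between -0.0013 and 0.08 in the other lists, and every list holds genes on both sides of 0.

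Within 100 kb of the 6 members tested lay 23 other tested genes, of which 8 were higher, 6 lower and 9 not past the test. These are 34.8% and 26.1%, close to the 29.2% and 29.0% of all tested genes. EGFR and TGFA had none. Next to ERBB2, MIEN1, 494 bp away on the other strand and known to be co-amplified with ERBB2 in breast cancer, rose from 71.1 to 96.3 CPM (log2 fold change 0.44), which is more than ERBB2 itself. GRB7, an ERBB2 adaptor encoded 9247 bp away, went the other way (log2 fold change -0.43 ± 0.13 SE, edgeR adjusted p 0.00595), a call lost without DHT replicate 1 (adjusted p 0.0561) or DHT+WBM replicate 3 (0.0519). STARD3 rose from 33.0 to 36.7 CPM (edgeR adjusted p 0.0211). That call was lost with DESeq2 and without DHT replicate 2 or 3 or DHT+WBM replicate 1 or 3, with an adjusted p of up to 0.0885. PGAP3 and IKZF3 did not pass.

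ERBB3 had 12 such neighbours, 5 higher and 4 lower, or 41.7% and 33.3%, against the same 29.2% and 29.0%. PA2G4, which encodes an ERBB3-binding protein and begins 812 bp away on the same strand, fell from 315 to 252 CPM (log2 fold change -0.32), in the same direction as ERBB3. The other lower genes were ESYT1, RPL41 and RPS26. The last 2 encode ribosomal proteins with many near-identical copies in the genome, so their counts are uncertain. MYL6, MYL6B, RAB5B, IKZF4 and SUOX were higher, and RNF41, SMARCC2 and ZC3H10 did not pass. Without DHT replicate 1 the calls of ESYT1 (adjusted p 0.0678) and SUOX (0.151) were lost, that of SUOX also without DHT+WBM replicate 1 (0.118), and that of IKZF4 without DHT replicate 3 (0.111) or DHT+WBM replicate 2 (0.0627). ESYT1 also lost its call with library totals alone (0.0522), and SUOX and IKZF4 theirs with DESeq2 (adjusted p 0.0652 and 0.0559). Near EGF, GAR1 was lower and ELOVL6 did not pass. Near HBEGF, CYSTM1 was higher, and PFDN1, ANKHD1 and its read-through ANKHD1-EIF4EBP3, which shares its exons, did not pass. EGFR-AS1 overlaps EGFR on the opposite strand and had 1 to 5 counts per library, and MIR4728 lies inside ERBB2; neither had enough counts to be tested, and the strand setting of the counting is not given in the sources used here.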

How the data were processed

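RNA-seq counts per gene for 6 LNCaP libraries, 3 per group, were taken from the table the authors deposited, which holds raw counts with the coordinates and length of each gene. The authors' pipeline, per the submitters' processing notes, involved STAR 2.6.0 and HTSeq 0.6.0 on hg19, together with edgeR 3.28.1 and bcl2fastq 2.18.0.12; its settings and the definition of gene length, which enters only the levels per kb, are not stated there. Genes were kept by filterByExpr of edgeR (minimum count 10, minimum total 15) and scaled by the trimmed mean of M-values (factors 0.979 to 1.02). The quasi-likelihood test of edgeR 4.0.16 (R 4.3.3) was fitted with group alone over all 13466 genes, with Benjamini-Hochberg adjustment. CPM were computed from the deposited counts with these factors. The alternatives were other scalings, other low-count filters, DESeq2 1.42.0, limma 3.58.1 (voom), a replicate block, stricter thresholds and leaving out each library. The fit was also run on simulated counts in which far fewer genes changed than were called here. The outcome of that run is not given, and it cannot show how the scaling behaves in these data.

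Low counts carry 95% exact Poisson intervals. Motifs were searched in RefSeq promoter windows. Replicates of a group differed by more than sampling noise and were kept apart. The excess was larger in DHT, with a chi-square per degree of freedom of 3.74 to 4.29 between its libraries. It was 1.73 to 2.02 in DHT+WBM, and the fit used a shared estimate of spread for both groups. Each list contributes by name at most 3 higher and 3 lower genes, those of largest change that passed, averaged 5 CPM or more and had groups without overlap. Every other ERBB ligand, and every tested gene overlapping or within 100 kb of a tested member, is named too. The members and lists were chosen with earlier results of these data known.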

Additional observations from a re-analysis of the deposited data

How the results depend on the processing

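Of the 6 members tested, TGFA, HBEGF, ERBB2 and ERBB3 kept their calls under all 14 refits, while EGFR and EGF did not. In all, 5 members were called higher with all libraries; leaving out 1 library at a time gave 3 to 5, and 3 were called with DESeq2 or at an adjusted p of 0.01. Requiring at least a 2-fold change left 0 members higher and 0 lower, 5 genes of the pathway lists higher and 0 lower, and 440 genes higher and 328 lower overall. The labels state no pairing by replicate number. Deviations of same-numbered libraries correlated at 0.0498, 0.0374 and 0.0192, and not every library correlated best with its own number. With so few libraries per group, values this small cannot decide whether the samples were paired. With the replicate block in the fit, 4079 genes were higher and 4030 lower, and 5 members were higher and 1 lower.

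Without the length term, the receptor shares were 23.2%, 29.0% and 47.9% for EGFR, ERBB2 and ERBB3 in DHT and 25.8%, 32.9% and 41.3% in DHT+WBM. The ligand shares were 55.8%, 26.5% and 16.8% for EGF, TGFA and HBEGF in DHT and 48.3%, 32.7% and 18.0% in DHT+WBM; the length of each gene is what differs here. Among 54 named genes that are no member, 42 were the same under every refit, 6 lost a call, 3 gained one (PGAP3, ELOVL6 and ANKHD1-EIF4EBP3), and 3 that were never called changed sign. Their log2 fold changes were 0.012 with library totals for SMARCC2, -0.012 to 0.150 with 1 library left out for ZC3H10, and -0.125 to 0.094 with 1 library left out and 0.0074 with library totals for ANKHD1; the cause was not tested. Depth limits ERBB4, BTC, AREG and EREG, whose counts of 0 to 14 per library can show only a large difference.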
